A study of Mus musculus with 18 samples.

Results

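Ribosome biogenesis is the nucleolar process in which RNA polymerase I transcribes ribosomal RNA, small nucleolar ribonucleoproteins (snoRNPs) guide its modification, and large sets of processing factors cut and fold it into the small and large ribosomal subunits. The transcription factor Myc is known to drive many of the genes of this process, and in the intestine both are high in dividing crypt cells and low in differentiated villus cells. The genes described here are Myc and 44 nucleolar, ribosomal RNA processing and RNA polymerase I genes, 45 of the 18838 genes listed in the deposited tables. They were chosen by symbol for their known roles, with earlier results of these data known. By role, they are Myc itself, 4 genes of RNA polymerase I and its factor, 3 nucleolar scaffold and chaperone genes, 4 genes of the box C/D snoRNPs, 4 of the box H/ACA snoRNPs, 13 of small subunit processing and 16 of large subunit processing. All 45 were protein coding genes listed at every time point, and all 45 passed the filter on low values at each.

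RNA was sequenced from duodenal epithelium of 3 WT (Mtgr1+/+) mice and 3 mice labelled Mtgr1-/-, male and female age-matched littermates per the study's methods, which give ages from 8 weeks for mice used in enteroid culture. Mtgr1 (gene symbol Cbfa2t2) encodes a transcriptional co-repressor, and the deletion was global and constitutive, so that every cell type of the mouse carried it. Each mouse gave freshly isolated crypts (day 0), enteroids harvested after 24 h (day 1) and enteroids harvested after 72 h (day 3), which makes 18 bulk libraries, 3 per genotype and time point. Enteroids are epithelial cultures grown from plated crypts, here in Matrigel with EGF, Noggin and R-spondin, the same for both genotypes.

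Reads on genes lay between 22035316 and 28621990 in the 16 libraries whose reads could be recovered from the deposited values. The targeted gene Cbfa2t2 stood at 614, 523 and 595 normalized counts (read counts divided by 1 factor per library) in WT crypts and at 697, 466 and 534 in crypts labelled Mtgr1-/-. It stood at 788, 710.2 and 757 against 1160, 1008 and 789 at day 1, and at 869, 774 and 883 against 892, 976 and 766 at day 3. Cbfa2t2 was thus not lower in the libraries labelled Mtgr1-/- (limma, log2 fold changes -0.05, 0.37 and 0.06, adjusted p = 0.917, 0.0557 and 0.686). A gene-level count does not show which exons were read, so these values did not check the label, and genotype is given throughout as the label of the libraries. Epithelial markers (5 of 5 listed) summed to at least 4412 CPM (counts scaled to a library sum of 1000000) in every library and stromal and endothelial markers to at most 9.19 CPM. Immune markers (7 of 7 listed) summed to between 1529 and 1669 CPM in WT crypts and to between 141 and 283 CPM in crypts labelled Mtgr1-/-. All 7 log2 fold changes there were negative (-3.00 to -0.46), and 1 of the 7 was called lower (limma), beside 3.15% of all genes tested. The sum is not a measure of immune cell number. Library 2 labelled Mtgr1-/- stood apart from the other 2 of its genotype in the levels of these 45 genes, in ways given below, and results that rest on it are given with and without it.

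The 45 genes took between 0.229% and 0.288% of all gene counts in WT crypts and between 0.248% and 0.395% in crypts labelled Mtgr1-/-. At day 1 their share was 0.633%, 0.652% and 0.698% in WT mice 1, 2 and 3. It was 0.259%, 0.371% and 0.222% in mice 1, 2 and 3 labelled Mtgr1-/-. The share had thus at least doubled in each WT culture within 24 h, whereas in each culture labelled Mtgr1-/- it stayed below that mouse's own crypt value. At day 3 the share was between 0.627% and 0.658% in WT and 0.435%, 0.283% and 0.383% in mice 1, 2 and 3 labelled Mtgr1-/-, with no overlap between the genotypes in either culture day.

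**Figure D1:**
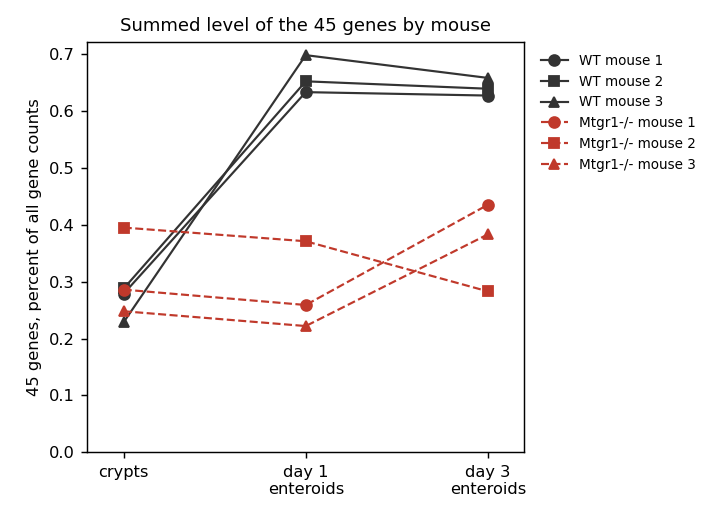
Percent of all gene counts taken by the 45 genes (y axis, from 0) in crypts, day 1 and day 3 enteroids (x axis), with 1 line per mouse (black, WT; red dashed, Mtgr1-/-; symbols mark the mouse number). WT lines go from at most 0.288% in crypts to at least 0.633% at day 1 and stay there, and mouse 2 labelled Mtgr1-/- is the highest of its genotype in crypts and day 1 and the lowest at day 3.

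Myc (ENSMUSG00000022346.15, chr15:61985391-61990374 on the plus strand of GRCm38) encodes the transcription factor of the set that acts on RNA polymerase II genes. In crypts, Myc stood at 1425, 970.2 and 678 normalized counts in WT mice and at 1203, 2484 and 1160 in mice labelled Mtgr1-/-. The ranges overlapped, the highest value being that of mouse 2 labelled Mtgr1-/-, and the log2 fold change of 0.63 ± 0.37 (SE) did not pass the threshold of 0.05 (limma, adjusted p = 0.42 over all genes tested). It was 0.27 without that mouse and 0.36 without WT mouse 3, the lowest. At day 1, Myc stood at 2469, 2517 and 2575 normalized counts in WT and at 1494, 1753 and 1611 in the libraries labelled Mtgr1-/-. All 3 of these lay below all 3 WT libraries, and Myc was called lower (log2 fold change -0.64 ± 0.09 (SE), limma adjusted p = 7.34e-04). At day 3, WT libraries held 3058, 3614 and 3190 normalized counts and those labelled Mtgr1-/- 2555, 1625 and 2362. Myc was again lower without overlap (-0.62 ± 0.16, limma adjusted p = 0.0125). Leaving out WT mouse 2 ended the day 3 call (-0.54, limma adjusted p = 0.0523), and without mouse 2 labelled Mtgr1-/- the difference was -0.42 (limma adjusted p = 0.00504).

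In CPM, which puts libraries of different time points on 1 scale, Myc went from 56.9, 38.1 and 26.3 in the crypts of WT mice 1, 2 and 3 to 99.1, 109.7 and 109 at day 1 and to 129, 150.4 and 132 at day 3. Mice 1 and 3 labelled Mtgr1-/- held 50 and 42.9 CPM in crypts, 48 and 51.7 at day 1, and 98.1 and 86.9 at day 3. Mouse 2 labelled Mtgr1-/- took the opposite course, from 104 CPM in crypts to 64.6 at day 1 and 55.1 at day 3. Levels were set across tables that were normalized separately, so the time course is a description and was not tested.

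**Figure D2:**
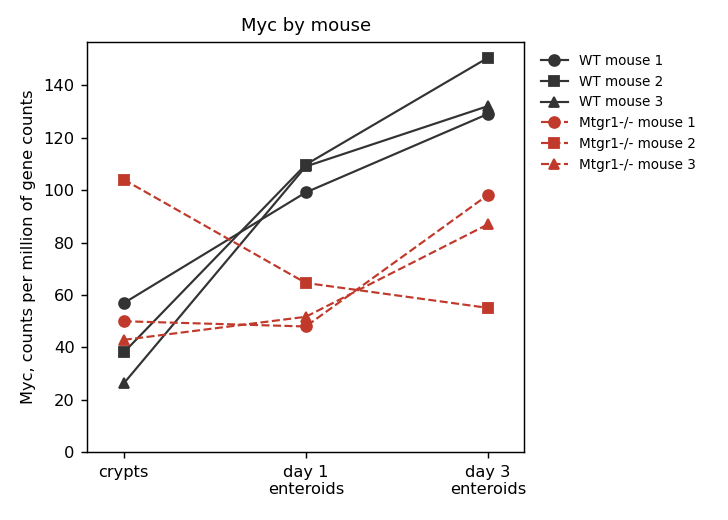
Level of Myc in CPM (y axis, from 0) against time point (x axis), with 1 line per mouse (black, WT; red dashed, Mtgr1-/-; symbols mark the mouse number). Each WT line is higher at each later time point, mice 1 and 3 labelled Mtgr1-/- lie between 42.9 and 51.7 until day 1 and at 98.1 and 86.9 at day 3, and mouse 2 goes down from 104 to 55.1.

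Myc with Max binds the E-box, and its core letters CACGTG read the same on both strands. They were looked for in RefSeq promoter windows (GRCm38.p6, 250 bases before to 50 after each gene's start), of which 39 of the 45 genes had one. The letters stood in 8 of the 39 windows (20.5%, exact 95% binomial interval 9.3% to 36.5%) and in 8.09% of the windows of all 27025 genes. In the 250 bases before the start alone they stood in 2 of 39 (5.13%) and in 6.86% of all genes. The related letters CACGCG, also searched on both strands, stood in 12 of the 39 whole windows (30.8%) and in 10.5% of those of all genes, so a higher share in the set was not particular to CACGTG. The 8 matches are shown, each as 30 bases read 5′ to 3′ on the strand of the gene, to let the 6 letters be seen with their flanks, and capitals mark the match.
Grwd1: aagggccggagtcgCACGTGtgaaaccgga
Nle1: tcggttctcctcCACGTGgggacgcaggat
Nop2: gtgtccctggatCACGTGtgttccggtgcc
Pes1: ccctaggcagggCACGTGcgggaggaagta
Tsr1: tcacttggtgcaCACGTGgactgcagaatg
Utp18: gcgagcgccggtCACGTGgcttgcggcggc
Utp20: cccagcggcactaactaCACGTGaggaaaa
Wdr43: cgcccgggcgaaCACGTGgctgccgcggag

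The matches began 35 bases after the start in Grwd1 (chr7:45830740-45830769, minus strand), 24 after it in Nle1 (chr11:82908355-82908384, minus strand), 3 in Pes1 (chr11:3963965-3963994, plus strand), 25 in Tsr1 (chr11:74898092-74898121, plus strand), 38 in Utp20 (chr10:88826765-88826794, minus strand) and 18 in Wdr43 (chr17:71616220-71616249, plus strand). That of Nop2 lay 60 bases before the start (chr6:125131811-125131840, plus strand) and that of Utp18 20 before it (chr11:93885769-93885798, minus strand), the coordinates being those of the 30 bases shown. The 250 bases before the start of Utp18 also overlap exon sequence of another gene, Mbtd1. A match is a description of the letters and not of binding, which was not measured here.

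The first comparison asked whether the genes differed between the genotypes in freshly isolated crypts. None of the 45 was called (limma, adjusted p under 0.05), where 3.15% of the 12980 genes tested were called lower in the libraries labelled Mtgr1-/- and 1.58% higher. At an unadjusted p under 0.05 there were 2 of the 45, Polr1a and Nop2, both higher (log2 fold change 0.30 and 0.36, limma adjusted p = 0.234 and 0.233), and neither edgeR nor DESeq2 on recovered reads called any. The share of all genes under that unadjusted threshold was not counted, so nothing is read from the 2. The median log2 fold change of the 45 was 0.18, beside 0.01 over all genes tested, and 43 of the 45 values were positive. The 2 negative values were those of Ubtf, the factor that opens ribosomal DNA to RNA polymerase I (-0.17), and Utp18 (-0.05). The shift rested on mouse 2 labelled Mtgr1-/-, whose crypts held the highest CPM of the 3 mice of its label for 44 of the 45 genes. Without it, the median was 0.03 and 25 of the 45 values were positive, and without WT mouse 3, the lowest WT mouse for 42 of the 45, it was 0.08. Such ranks of mice were counted for the 45 only, with no share over all genes beside them.

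Libraries of the genotypes did not overlap for 5 genes in crypts. Ubtf lay lower in all 3 libraries labelled Mtgr1-/- (2325, 2271 and 2382 normalized counts against 2697, 2528 and 2630 in WT), where 13.5% of all genes tested showed this. Polr1a, Nop2, Nop14 and Bms1 lay higher in all 3, beside 12.0% of all genes tested, and none of the 5 passed the adjusted threshold.

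At day 1 the second comparison asked the same of 24 h enteroids. Each of the 45 genes was called lower in the libraries labelled Mtgr1-/- (limma, adjusted p under 0.05), beside 28.9% of the 12587 genes tested called lower and 30.0% called higher. The log2 fold changes ran from -1.29 for Rrp1b to -0.31 for Bop1, with a median of -0.88, beside -0.01 over all genes tested. For each of the 45, all 3 libraries labelled Mtgr1-/- lay below all 3 WT libraries, as they did for 33.9% of all genes tested. All 45 were called lower under edgeR and DESeq2 on recovered reads too, and without single libraries at least 44 were. All genes called, in either direction, numbered 7413, and between 6136 and 7874 without single libraries.

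At day 3 the third comparison called 43 of the 45 lower and none higher (limma), where 29.1% of the 12782 genes tested were called lower and 29.9% higher. The median log2 fold change was -0.56, beside 0.0026 over all genes tested, and the values ran from -0.97 for Rrp1b to -0.09 for Bop1. Bop1 and Nop10 did not pass, and they were the 2 genes whose libraries overlapped. The other 43 lay below WT without overlap, beside 34.2% of all genes tested. Between 35 (without WT library 3) and 43 were called when single libraries were left out, and 41 without library 2 labelled Mtgr1-/-, with a median of -0.43. All genes called, in either direction, went from 7545 to between 6096 and 7695 without single libraries. In bulk libraries such as these, fewer cells that express a gene and less of its RNA per cell cannot be told apart.

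**Figure D3:**
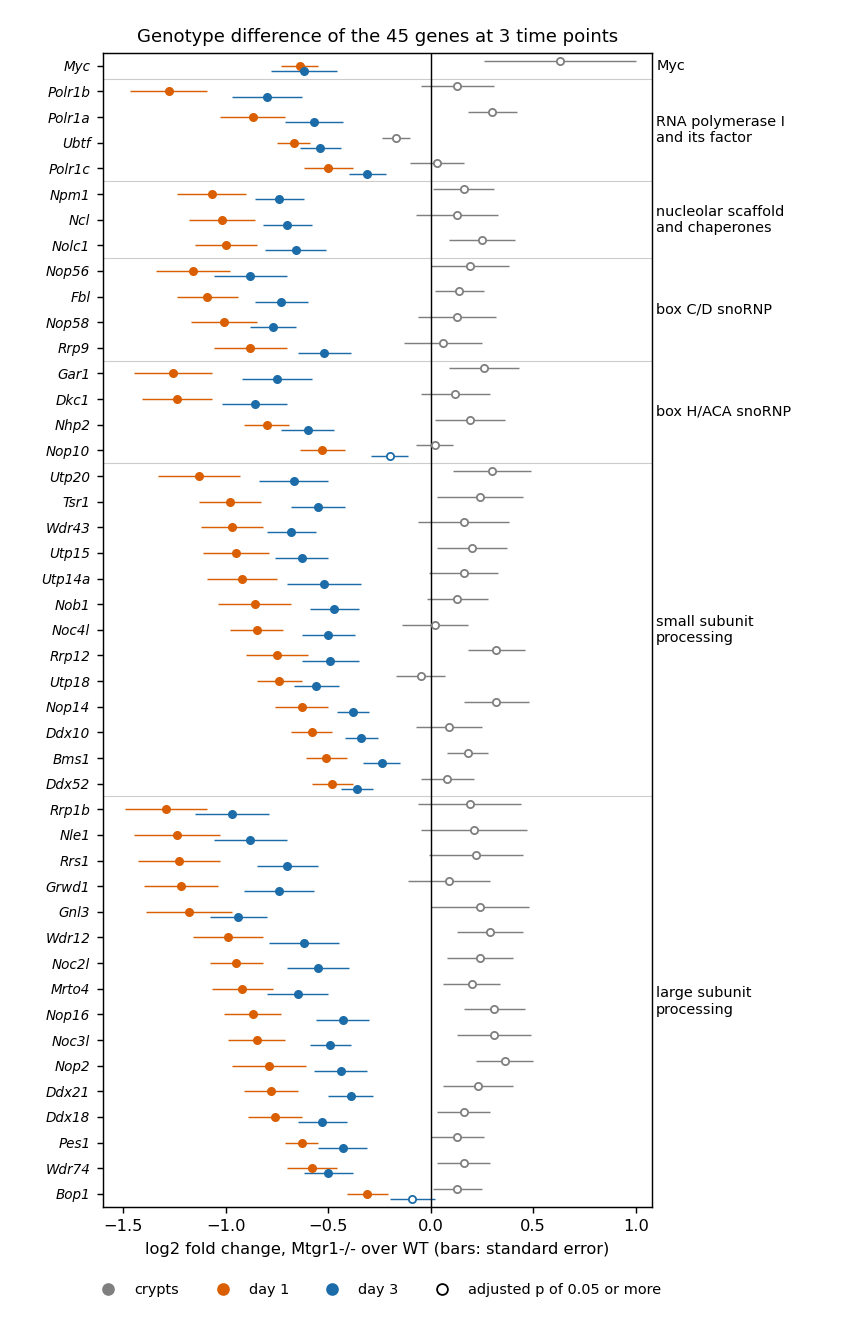
Log2 fold change of each of the 45 genes, Mtgr1-/- over WT (x axis, bars are standard errors, n = 3 per genotype), by role and, within a role, by the day 1 value; grey, orange and blue points are crypts, day 1 and day 3, and open points have an adjusted p of 0.05 or more. Crypt points lie near or right of 0 and are all open, day 1 points are all filled and lie between -1.29 and -0.31, and day 3 points lie between -0.97 and -0.09.

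Among the genes of RNA polymerase I and its factor, the second largest subunit gene Polr1b showed the largest difference. It stood at 1552, 1740 and 1773 normalized counts in WT day 1 enteroids and at 697, 919 and 516 in those labelled Mtgr1-/-, a log2 fold change of -1.28 ± 0.19 (SE, limma adjusted p = 0.00115). At day 3 it held 1879, 1806 and 1824 against 1286, 777 and 1180 (-0.80 ± 0.17, limma adjusted p = 0.00486). Polr1b in the cultures labelled Mtgr1-/- was thus below its lowest WT value at both days, while in crypts the 2 groups overlapped (779 ± 69.1 and 867 ± 226, SD). Polr1c, a subunit that RNA polymerases I and III share, differed least of the 4, with 1029, 899 and 869.9 normalized counts in WT against 657, 743 and 586 at day 1 (-0.50 ± 0.12, limma adjusted p = 0.00885). At day 3 Polr1c stood at 987, 1138 and 1031 against 875, 810.3 and 849 (-0.31 ± 0.09, limma adjusted p = 0.0154), a call that leaving out WT library 2 ended (adjusted p = 0.0644). The largest subunit gene Polr1a and Ubtf were lower at both days (-0.87 and -0.67 at day 1, -0.57 and -0.54 at day 3).

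The nucleolar scaffold and chaperone genes encode abundant proteins of the nucleolus. Npm1, which encodes nucleophosmin, stood at 26724, 25057 and 26493 normalized counts in WT day 1 enteroids and at 12247, 15828 and 9856 in those labelled Mtgr1-/- (-1.07 ± 0.17, limma adjusted p = 0.00132). At day 3 it stood at 26270, 27989 and 27480 against 18653, 14182 and 16225 (-0.74 ± 0.12, limma adjusted p = 0.00106). Every WT culture held more Npm1 than every culture labelled Mtgr1-/-. Nolc1, a chaperone of snoRNPs, had 4355, 4324 and 4913 normalized counts in WT against 2163, 2866 and 1862 at day 1 (-1.0 ± 0.15, limma adjusted p = 0.00126). At day 3 Nolc1 had 4481, 4639 and 4823 against 3567, 2306 and 3099 (-0.66 ± 0.15, limma adjusted p = 0.00569). Ncl, encoding nucleolin, differed by -1.02 at day 1 and -0.70 at day 3, so that the 3 genes of this role lay within 0.1 of each other on the log2 scale at each day.

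The box C/D snoRNPs carry the methyltransferase fibrillarin (Fbl) and add methyl groups to ribosomal RNA. Their core protein gene Nop56 differed most, with 4907, 5588 and 5423 normalized counts in WT day 1 enteroids and 2212, 3180 and 1889 in those labelled Mtgr1-/- (-1.16 ± 0.18, limma adjusted p = 0.00126). At day 3 Nop56 stood at 5611, 5693 and 5313 against 3938, 2206 and 3100 (-0.88 ± 0.18, limma adjusted p = 0.00402). Rrp9, a protein of the U3 particle, differed least, with 766, 855 and 1010 against 414, 615 and 417 at day 1 (-0.88 ± 0.18, limma adjusted p = 0.00428). Its day 3 values of 742, 914 and 941 in WT were also above 645, 523 and 637 in the libraries labelled Mtgr1-/- (-0.52 ± 0.13, limma adjusted p = 0.00873). Fbl and Nop58 lay between them at day 1 (-1.09 and -1.01) and at day 3 (-0.73 and -0.77).

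The box H/ACA snoRNPs turn uridine into pseudouridine through dyskerin, the product of Dkc1, and the same proteins bind telomerase RNA. Gar1 had 992, 1022 and 929 normalized counts in WT day 1 enteroids and 379, 559 and 324 in those labelled Mtgr1-/- (-1.26 ± 0.19, limma adjusted p = 0.00119). Dkc1 had 3008, 2581 and 2897 against 1209, 1525 and 919 (-1.24 ± 0.17, limma adjusted p = 8.55e-04). At day 3 Dkc1 differed most of this role, with 2795, 2785 and 2869 against 1820, 1170 and 1742 (-0.86 ± 0.16, limma adjusted p = 0.00222). Both genes were more than halved in the day 1 cultures labelled Mtgr1-/-. Nop10, the smallest protein of the particle, had 1733, 1603 and 1529 normalized counts in WT against 1099, 1292 and 999 at day 1 (-0.53 ± 0.11, limma adjusted p = 0.00526). At day 3 the groups overlapped, 1529, 1646 and 1599 against 1338, 1284 and 1533, and the difference of -0.20 ± 0.09 did not pass (limma adjusted p = 0.0812). Nhp2 lay between, at -0.80 and -0.60.

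Small subunit processing was represented by 13 genes, all of them called lower at both days. Utp20, a large scaffold protein of the early precursor, stood at 2493, 2349 and 2467 normalized counts in WT day 1 enteroids and at 1073, 1555 and 833 in those labelled Mtgr1-/- (-1.13 ± 0.20, limma adjusted p = 0.00236). Wdr43 led at day 3, with 3293, 3142 and 3511 against 2355, 1705 and 2178 (-0.68 ± 0.12, limma adjusted p = 0.00206). The helicase gene Ddx52 had the smallest difference at day 1, with 1544, 1274 and 1433 against 1038, 1046 and 951 (-0.48 ± 0.10, limma adjusted p = 0.0044). Even for this gene the lowest WT library was above the highest labelled Mtgr1-/-. Bms1, a GTPase of the early precursor, had the smallest difference at day 3, with 1988, 1861 and 2055 against 1850, 1535 and 1615 (-0.24 ± 0.09). Its adjusted p of 0.05 (limma) was under the threshold before rounding, and edgeR and DESeq2 on recovered reads did not call it (adjusted p = 0.0765 and 0.122). Leaving out any 1 library other than library 1 labelled Mtgr1-/- also ended the call (adjusted p between 0.0664 and 0.158). Other members were Tsr1 and Utp15 (-0.98 and -0.95 at day 1), Nob1, the endonuclease that makes the last cut of small subunit RNA (-0.86), Rrp12 (-0.75) and Nop14 (-0.63).

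Large subunit processing held both the largest and the smallest differences of the whole set. Rrp1b stood at 1040, 1228 and 1355 normalized counts in WT day 1 enteroids and at 484, 658 and 374 in those labelled Mtgr1-/- (-1.29 ± 0.20, limma adjusted p = 0.00142). At day 3 it stood at 1325, 1207 and 1414 against 903, 529 and 628 (-0.97 ± 0.18, limma adjusted p = 0.00252). Rrp1b was the member furthest below WT at both days. Bop1 was the nearest to WT, with 2625, 2561 and 3073 normalized counts against 2051, 2393 and 2224 at day 1 (-0.31 ± 0.10, limma adjusted p = 0.0325). That call was lost without a trend in the variance (adjusted p = 0.0607) and without 4 of the 6 libraries, WT 1, WT 3, Mtgr1-/- 1 or Mtgr1-/- 3 (adjusted p between 0.0578 and 0.116). At day 3 Bop1 had 2259, 2571 and 2792 against 2462, 2125 and 2591, which overlapped (-0.09 ± 0.11, limma adjusted p = 0.515). Bop1 acts in 1 complex with the products of Pes1 and Wdr12, which differed by -0.63 and -0.99 at day 1 and by -0.43 and -0.62 at day 3 and were called at both. Nle1, Rrs1, Grwd1 and Gnl3, the last encoding nucleostemin, were lower by more than 1 on the log2 scale at day 1 (-1.24, -1.23, -1.22 and -1.18), and the other 8 genes of this role lay between -0.95 and -0.58.

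**Figure D4:**
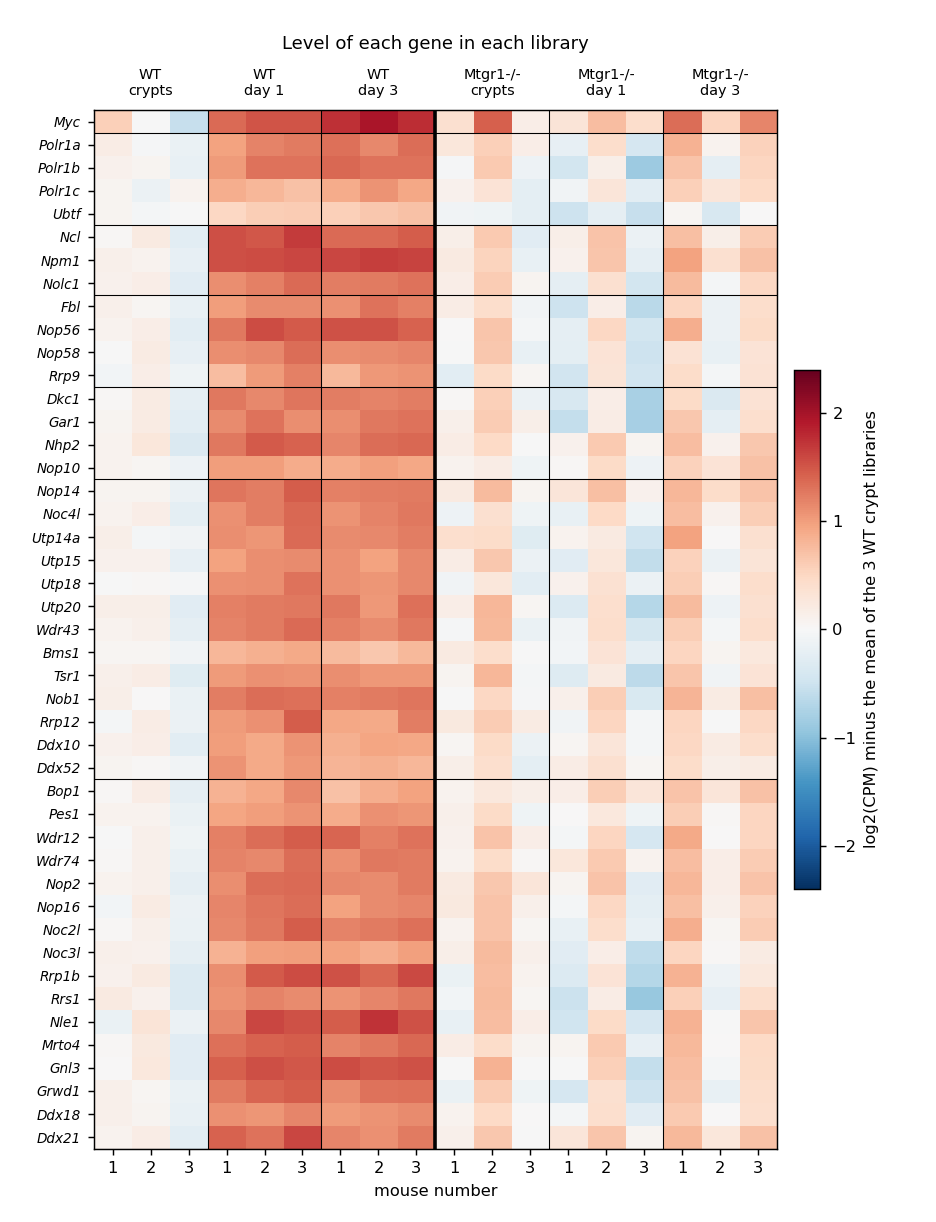
Level of each of the 45 genes (rows, ordered by role) in each of the 18 libraries (columns, mouse numbers 1 to 3 within genotype and time point), as log2 CPM minus the mean of the 3 WT crypt libraries (colour scale). WT day 1 and day 3 columns are red for every gene, whereas Mtgr1-/- columns stay pale, with mouse 2 the reddest of its label in crypts and the palest at day 3.

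Set against each mouse's own crypts, the median CPM of the 45 genes at day 1 was 2.03, 2.13 and 2.81 times the crypt level in WT mice 1, 2 and 3. In mice 1, 2 and 3 labelled Mtgr1-/- it was 0.875, 0.892 and 0.8 times that level. Over 12145 genes the corresponding medians were 1.12, 1.24 and 1.17 in WT mice 1, 2 and 3 and 0.838, 0.95 and 0.94 in mice labelled Mtgr1-/-. All 45 genes had a ratio above 1 in all 3 WT mice, and for all 45 each WT ratio was above each ratio of a mouse labelled Mtgr1-/-. In the latter mice, 29 of the 45 had a ratio below 1 in all 3 and 5 a ratio above 1 in all 3. These counts were made for the 45 only, so no share over all genes stands beside them.

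The ratio in WT was highest for Ncl and Npm1, at 3.02 ± 0.681 and 3 ± 0.424 times the crypt level (mean ± SD of 3 mice), and lowest for Ubtf, at 1.49 ± 0.124. Median ratios of the roles in WT lay between 1.98 for RNA polymerase I and 3 for the scaffold genes, and the same roles had the lowest and highest medians in mice labelled Mtgr1-/- (0.797 and 0.995). Gar1 had the lowest ratio in the latter, 0.627 ± 0.112 of its crypt level. Between day 1 and day 3 the median ratio was 1, 0.971 and 0.958 in WT mice 1, 2 and 3, with 14 of the 45 genes below 1 and 6 above 1 in all 3 of these mice. Myc was among the latter, at 1.31, 1.37 and 1.21. In mice 1 and 3 labelled Mtgr1-/- the median was 1.70 and 1.76, and in mouse 2 it was 0.767. Over 12145 genes the medians were 1.09, 1 and 1.03 in WT mice and 1.26, 0.964 and 1.22 in mice 1, 2 and 3 labelled Mtgr1-/-, so that mouse 2 was below the other 2 mice of its label there too. In that mouse all 45 genes were the lowest of the 3 mice of its label at day 3, after all 45 had been the highest at day 1. Neither these ranks nor the counts of ratios above 1 or below 1 were made over all genes.

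The change of the genotype difference over culture was tested with 1 limma model over the 18 libraries that took the mouse as a random effect. From crypts to day 1 the difference, Mtgr1-/- minus WT, moved down for all 45 genes past the threshold, beside 20.0% of the 12937 genes tested that moved down and 19.4% that moved up. The median change was -1.14 on the log2 scale, beside 0.02 over all genes. Gar1 changed most (-1.52 ± 0.28, adjusted p = 0.00165), followed by Rrp1b (-1.47 ± 0.34), Nle1 (-1.45 ± 0.34) and Rrs1 (-1.45 ± 0.32), while Myc changed by -1.27 ± 0.38 (adjusted p = 0.0164) and Bop1 least (-0.43 ± 0.16, adjusted p = 0.0438). With single mice left out, 42 to 45 of the 45 were called, while all genes called went from 5096 to between 3360 and 5595. Bop1 lost its call without 4 of the 6 mice (WT 1, WT 3, Mtgr1-/- 1 or Mtgr1-/- 3), with another scaling, without the filter and with a fixed mouse block (adjusted p between 0.0518 and 0.216). Myc lost its call without WT mouse 2 or WT mouse 3 (adjusted p = 0.0649 and 0.0834).

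From crypts to day 3 the difference moved down past the threshold for 37 of the 45, beside 14.4% of the genes tested that moved down and 16.3% that moved up, with a median of -0.80. This comparison used the same crypt libraries as the one before. Myc changed by -1.24 ± 0.38 (adjusted p = 0.0241). The 8 genes that did not pass had changes between -0.67 for Utp14a and -0.21 for Bop1. The count depended on single mice, with 9, 13 and 0 of the 45 called without WT mouse 1, 2 or 3, and 23 without mouse 2 labelled Mtgr1-/-. All genes called, in either direction, also fell, from 3965 to 1803, 1737 and 2130 without WT mouse 1, 2 or 3. They numbered 2679 without mouse 2 labelled Mtgr1-/-. Myc lost its call without WT mouse 2, WT mouse 3 or mouse 2 labelled Mtgr1-/- (adjusted p = 0.103, 0.0992 and 0.101, the change in the last case being -0.69). All 45 changes were negative in each of these fits. Between day 1 and day 3 none of the 45 was called by limma, where 0.0232% of the genes tested moved up and 0.00773% moved down. At an unadjusted p under 0.05 there was 1, Nop10, and the share of all genes under that threshold was not counted. The change was positive for all 45, with a median of 0.32. Without mouse 2 labelled Mtgr1-/- the median was 0.62 and 22 of the 45 were called higher, a smaller deficit at day 3 than at day 1. In that fit 3.61% of the 12937 genes were called higher and 3.27% lower. That mouse was singled out by its values in these same 45 genes, so the fit without it is no separate support. Without mouse 1 or 3 labelled Mtgr1-/- the median was 0.19 or 0.16. In each fit without another single mouse, 0 of the 45 were called.

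Markers of proliferating cells, 6 genes all listed, moved with these results. They summed to between 877 and 1074 CPM in WT crypts and between 678 and 1055 CPM in crypts labelled Mtgr1-/-. At day 1 they summed to between 1797 and 1919 CPM in WT, and to 704, 967 and 599.7 CPM in mice 1, 2 and 3 labelled Mtgr1-/-. At day 3 these sums were between 1954 and 2063 CPM in WT, and 1153, 684 and 969 CPM. Proliferation markers thus had the same order of mice labelled Mtgr1-/- as the 45 genes at all 3 time points, mouse 2 being the highest in crypts and at day 1 and the lowest at day 3. Enterocyte markers (6 of 6 listed) had mouse 2 in the reverse places, at 7948 CPM in crypts, 11986 at day 1 and 17556 at day 3, beside 10664, 15750 and 9990 in mouse 1 and 12814, 16298 and 9932 in mouse 3.

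In WT the enterocyte sum was between 15646 and 20789 CPM in crypts, between 8608 and 10878 at day 1 and between 6278 and 7150 at day 3. The 6 enterocyte markers did not move as 1. In crypts 3 were higher and 3 lower in the libraries labelled Mtgr1-/-, with log2 fold changes from -4.51 to 0.61 (median -0.07). At day 1 and at day 3, 5 were higher and 1 lower (medians 2.11 and 1.85). Stem cell markers (5 of 5 listed) summed to at least 1019 CPM in every WT library and at most 217 CPM in every library labelled Mtgr1-/-. In crypts this sum did not stand for each stem cell marker. The log2 fold changes of the 5 ran there from -6.77 to 0.49 (median -0.29), with 4 negative and 1 positive. At day 1 and at day 3 all 5 were negative (medians -3.29 and -3.38). Paneth (5 of 5 listed) and enteroendocrine markers (5 of 5 listed) were lower in the latter at all time points, as were the 4 of 5 goblet markers listed. The part of these shifts in cell makeup in the differences of the 45 genes was not tested.

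Further genes of ribosome biogenesis were taken from a list of 104 that are not among the 45, of which 103 passed the filter. At day 1, 74 of the 103 were called lower and 3 higher (median -0.54), and at day 3, 68 and 4 (median -0.37). Over all genes tested, 28.9% were called lower and 30.0% higher at day 1, and 29.1% and 29.9% at day 3. In crypts the median was 0.15. By role, 7 of 12 genes of RNA polymerase I, 29 of 38 of the small subunit, 30 of 43 of the large subunit and 8 of 10 of the exosome and nucleases were lower at day 1. Lyar was the furthest below WT (-1.31 ± 0.21, limma adjusted p = 0.00152), with the exosome subunits Exosc2 (-1.30 ± 0.17) and Exosc8 (-1.21 ± 0.16) and the RNA polymerase I subunit gene Cd3eap (-1.23 ± 0.20).

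Sbds and Efl1, whose products free the late large subunit from the factor eIF6, were higher than WT at day 1 (0.50 ± 0.11 and 0.53 ± 0.11) and at day 3 (0.67 ± 0.10 and 0.51 ± 0.08), and Eif6 was higher at day 3 (0.43 ± 0.10, limma adjusted p = 0.00741). The helicase gene Ddx49 was higher at both days (0.55 ± 0.08 and 0.31 ± 0.11). Other late large subunit factors of the list lay below WT at day 1, Lsg1 at -0.43 ± 0.10 (limma adjusted p = 0.00612) and Nmd3, which did not pass, at -0.31 ± 0.13 (limma adjusted p = 0.0677), these 2 being named after their values were seen.

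Among 14 genes of the Myc network, Mlxipl, a glucose-responsive factor, was the one called in crypts (-1.04 ± 0.15, limma adjusted p = 0.0138). At day 1, 6 of the 14 were called higher and 4 lower, beside 30.0% and 28.9% of all genes tested, and at day 3, 5 and 3, beside 29.9% and 29.1%, and nothing about the list is read from these counts. Mxd1, which pairs with the Myc partner Max in place of Myc and represses, was at 2182, 1688 and 1685 normalized counts in WT and at 6371, 3974 and 6801 in the libraries labelled Mtgr1-/- at day 1 (1.60 ± 0.21, limma adjusted p = 6.59e-04). At day 3 it was at 816, 623 and 724 against 3317, 4403 and 3087 (2.31 ± 0.15, limma adjusted p = 1.96e-05). The groups were far apart at both days, whereas in crypts they overlapped (6180 ± 528 and 6089 ± 1388, SD). Mxi1, of the same repressor family, was higher than WT by 1.51 ± 0.19 on the log2 scale at day 1 and by 0.63 ± 0.12 at day 3, and Max itself by 0.72 ± 0.11 at day 1. In CPM, Mxd1 and Mxi1 lay lower at day 1 than in the same mouse's crypts in all 6 mice, and further below in WT. The Myc paralogs went apart, Mycl lower (-1.43 ± 0.13 at day 1 and -1.16 ± 0.12 at day 3) and Mycn higher (0.72 ± 0.24 and 1.59 ± 0.22), the latter at no more than 157 normalized counts in any library.

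A list of 39 known Myc targets outside the ribosome had 34 genes called lower and 3 higher at day 1 (median -0.77) and 27 and 3 at day 3 (median -0.49). The shares over all genes tested were 28.9% lower and 30.0% higher at day 1, and 29.1% and 29.9% at day 3. Furthest below WT at day 1 were Ppat and Cad, the entry enzymes of purine and pyrimidine synthesis (-1.38 ± 0.19 and -1.27 ± 0.19), Shmt1 (-1.33 ± 0.18) and Cdk4 (-1.27 ± 0.14). The 3 above WT were Slc3a2, a subunit of amino acid transporters (1.18 ± 0.13), Ldha (0.60 ± 0.15) and Txnrd1 (0.40 ± 0.11), and the same 3 were named as higher at day 3.

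For comparison, 77 of 82 cytosolic ribosomal protein genes were lower at day 1 (median -0.49) and 68 at day 3 (-0.45). DNA replication genes were lower in 38 of 39 at day 1 (median -1.26) and 39 at day 3 (-1.08). In crypts their median was -0.17 and that of the 45 was 0.18, with no gene of either list called. Without mouse 2 labelled Mtgr1-/- the median of the 45 was 0.03, and that of the DNA replication genes was not computed. RNA polymerase II subunit genes were lower in 5 of 12 at day 1 (median -0.28) and 4 at day 3 (-0.19), and RNA polymerase III genes in 7 of 10 at both days (-0.54 and -0.35). These counts are of genes called lower, beside 28.9% of all genes tested at day 1 and 29.1% at day 3. Nothing about the RNA polymerase II list is read from its counts.

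**Figure D5:**
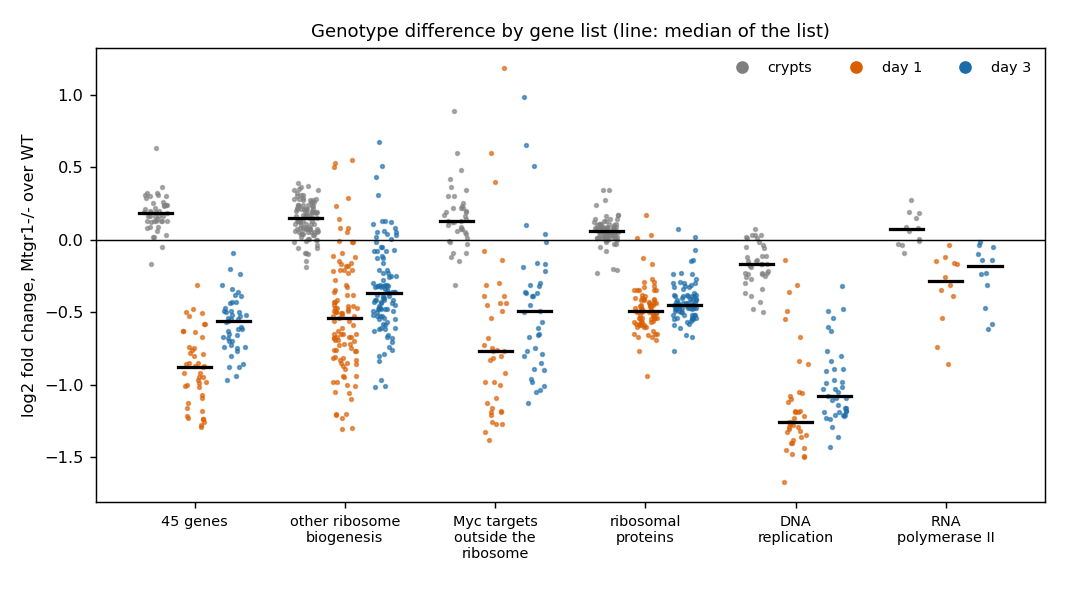
Log2 fold change, Mtgr1-/- over WT (y axis), of every tested gene of 6 lists (x axis) in crypts (grey), day 1 (orange) and day 3 (blue), with a black line at each median. At day 1 the 45 genes have a median of -0.88, between those of DNA replication genes (-1.26) and of cytosolic ribosomal protein genes (-0.49). In crypts their median is 0.18 (0.03 without mouse 2 labelled Mtgr1-/-) and that of DNA replication genes is -0.17, with no gene of either list called.

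The 8 genes whose promoter windows held CACGTG had a median log2 fold change of -0.97 at day 1 and -0.61 at day 3, and the 31 without them -0.87 and -0.54, with ranges that overlapped (-1.24 to -0.63 and -1.29 to -0.48 at day 1).

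Of the 45 genes, 7 hold at least 1 of 21 annotated snoRNA genes on the same strand (15.6%, beside 1.48% of 17034 protein coding genes of the tables). They are Nop56 with 5, Nop58 with 4, Ncl, Wdr43 and Gnl3 with 3 each, Tsr1 with 2 and Dkc1 with 1, and 3 of these hosts (Nop56, Nop58 and Dkc1) themselves encode snoRNP proteins. Pseudogene copies of at least 95% identity over 200 bases were annotated for 8 of the 45 (4 each for Npm1 and Nop56), none of them listed in the tables, so a share of reads from such copies could be counted on the gene. For Polr1a, Utp14a, Tsr1 and Noc2l, at least 100 exonic bases overlap a listed gene on the other strand. The library kit keeps strand, but the strand setting of the counting is not given in the sources used here.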

How the data were processed

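RNA from 18 bulk libraries was made into stranded mRNA libraries by the authors, trimmed with fastp 0.20.0, quantified with Salmon 1.3.0 against mouse transcripts (GENCODE M21, GRCm38), summed per gene with tximeta and compared with DESeq2 1.26.0. The deposited signal is a gene-level count divided by 1 size factor per library, separately in the table of each time point. The deposited log2 fold changes, their standard errors, Wald scores and p-values are the authors' own comparisons and were not used.

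At each time point, limma 3.58.1 (R 4.3.3; lmFit, then eBayes with a variance trend) compared 3 libraries with 3, two-sided, on log2 of the normalized count plus a pseudocount of 1. A gene entered if its table mean reached 10, p-values were adjusted over all genes by Benjamini-Hochberg, and the threshold was 0.05. Fold changes are on that scale. The smallest exact permutation p of 3 against 3 is 0.1, so p-values come from the limma model. Changes of the genotype difference came from 1 model of the 18 libraries in which the mouse was a random effect (estimated correlation 0.00576). CPM were normalized counts divided by the library's sum. The lowest mean of any of the 45 genes over a table was 249, and counting error was not separated from the spread of mice. Groups and mouse numbers came from the labels. WT and Mtgr1-/- libraries of 1 number deviated together at day 1 (correlations 0.116, 0.231 and 0.216) and not at day 3 (-0.00666, -0.00226 and -0.0156), with 0.0764, 0.274 and 0.346 in crypts. Where numbers pair, the pairing comes from this check and not from the labels.

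Reads were recovered by dividing each library's values by its lowest value above 0, which gave whole numbers within 0.01 reads for 100% of values in all 18 libraries. This step could not be told from 1 for library 2 of WT crypts and library 2 of day 3 Mtgr1-/- enteroids, so both were left out of edgeR 4.0.16 and DESeq2 1.42.0. Scripts were tested on simulated data. All 18838 gene IDs matched GENCODE M21. Copies were found with blastn 2.17.0. The genes and lists were chosen with earlier results of these data known. Named in full were Myc and, for each role, the genes with the most negative and most positive difference at day 1 and day 3. From the ribosome biogenesis, Myc network and Myc target lists, up to 4 called genes per direction with a mean of at least 50 were named. Alternatives were other pseudocounts (0.1 and 8), filters, scalings, no trend, a replicate block, count tests and each library left out.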

Additional observations from a re-analysis of the deposited data

Results flagged for a closer look

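The genotype difference changed between time points, by a test of the change itself (limma on 18 libraries), for 45 of the 45 genes from crypts to day 1 and for 37 from crypts to day 3. Of all genes tested, 20.0% and 14.4% moved down past the threshold. The 37 became 9, 13 and 0 without WT mouse 1, 2 or 3, where all genes called went from 3965 to 1803, 1737 and 2130. Myc lost its call in both changes without WT mouse 2 or WT mouse 3. From crypts to day 1 the change on the log2 scale was -1.27 for Myc, -1.41 for Polr1b, -1.24 for Npm1, -1.35 for Nop56, -1.52 for Gar1, -1.36 for Dkc1, -1.43 for Utp20 and -1.47 for Rrp1b. From crypts to day 3 it was -1.24 for Myc, -0.92 for Polr1b, -0.91 for Npm1, -1.07 for Nop56, -1.01 for Gar1, -0.98 for Dkc1, -0.97 for Utp20 and -1.16 for Rrp1b. Groups of 3 libraries were too small for a test of single outlying libraries.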

How the results depend on the processing

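At each time point 16 alternatives were run and for each change between time points 11. With the replicate block, 45 genes were called at day 1 and 43 at day 3, as without it; with the mouse as a fixed block the changes from crypts called 44 (Bop1 lost, adjusted p = 0.0616) and 35, and the block changed no other count of the 45 past 1.5 times. Polr1c in crypts turned to -0.04 in DESeq2 and -0.04 in edgeR. With single libraries left out, crypt log2 fold changes ran from -0.08 to 0.25 for Polr1b, -0.06 to 0.12 for Polr1c, -0.01 to 0.31 for Nop56, -0.09 to 0.26 for Rrp9, -0.03 to 0.05 for Nop10, -0.05 to 0.22 for Dkc1, -0.04 to 0.19 for Ddx52, -0.10 to 0.30 for Wdr43 and -0.04 to 0.41 for Rrp1b, most turning without library 2 labelled Mtgr1-/-. All genes called in crypts numbered 614, with 1200 in DESeq2, 209 in edgeR and 176 to 608 without single libraries. For the change from crypts to day 1 all genes called went from 5096 to between 3360 and 5595 without single mice. For crypts to day 3 they went from 3965 to between 1737 and 3823, again without single mice, with the 45 going from 37 to between 0 and 40 called and their median from -0.80 to between -0.99 and -0.50. For day 1 to day 3, all genes called were 4, with 42 under the fixed block, 53 with a pseudocount of 8 and 0 to 890 without single mice; the 45 had 0 to 22 called higher, a median between 0.16 and 0.62, and Myc between -0.16 and 0.28. CACGTG stood in 5.13% of windows cut at the start, since matches after it were left out, and CACGCG, a search added after seeing the data, in 30.8% of whole windows. The cause of the other shifts was not tested. Without mitochondrial genes the share of the 45 was 0.703% in WT and 0.304% in libraries labelled Mtgr1-/- at day 1. How far depth limits the calls near the threshold (Bop1 and Bms1) was not tested.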
